A study of Canis lupus familiaris with 34 samples.

Results

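The nuclear genes for subunits of the 5 complexes of oxidative phosphorylation were followed in the mitral valves of 34 Cavalier King Charles Spaniels. Members were taken by gene symbol, with the name patterns of NADH dehydrogenase (NDUF), succinate dehydrogenase (SDH), the cytochrome bc1 complex (UQCR), cytochrome c oxidase (COX) and ATP synthase (ATP5). The patterns found 72 of the 22035 gene symbols of the count table. Of these, 33 were in complex I, 4 in complex II, 5 in complex III, 12 in complex IV and 18 in complex V. No measured value entered the name patterns, although they were chosen with earlier results of these data known. The patterns do not cover every nuclear subunit, and COX4I1, for example, is outside them. Others, such as UQCRB, UQCRQ and UQCR11 of complex III, are covered but are not in the count table under those symbols. NDUFA4 is counted with complex I by its name, although it is now regarded as a subunit of complex IV.

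The dogs were elderly, privately owned animals of a single breed, and each library came from the mitral valve of 1 dog. The group 10y-noCHF held 19 dogs (10 females and 9 males) without congestive heart failure (CHF), and nearly all of them had myxomatous mitral valve disease (MMVD) at a stage before CHF. The group 10y-MMVD-CHF held 15 dogs (6 females and 9 males) in which MMVD had progressed to CHF. The study asked which valve genes differ between dogs with and without CHF. Genotypes and treatments of single dogs, and their exact ages, were not analysed here.

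Oxidative phosphorylation makes most of the ATP of a working heart muscle cell. Complexes I and II pass electrons from NADH and succinate to ubiquinone, complex III passes them on to cytochrome c, complex IV reduces oxygen, and complex V uses the proton gradient to make ATP. Most subunits are encoded in the nucleus and a few in mitochondrial DNA. Cardiac muscle is rich in mitochondria, whereas the valve leaflet is mainly connective tissue made by valve interstitial cells. Some subunits exist as a muscle form and a form found in most other tissues, such as COX6A2 and COX6A1, or COX7A1 and COX7A2.

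A total of 46185256 to 82361245 counts were assigned per dog. Markers of valve interstitial cells were high in all dogs, with means of 10.7 to 12.2 log2 CPM over 8 genes. CPM are counts per 1e6 counts of a dog, with the dog's total scaled by its TMM normalization factor. Cardiomyocyte markers varied far more. The 18 of them took between 0.0058% and 4.59% of a dog's counts. Their mean was 5.83 ± 3.32 log2 CPM (SD, n = 19) in 10y-noCHF and 6.20 ± 2.87 (SD, n = 15) in 10y-MMVD-CHF, with ranges of -0.31 to 9.70 and 1.02 to 10.6. In the dog with the lowest mean, CAV749, MYL3 and CSRP3 were each at 0.0516 CPM. MYL2, the ventricular light chain, had a lowest value of 0 CPM. In bulk tissue, fewer cells of a type and less RNA per cell cannot be told apart.

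The counting used 2 kinds of features, canine RefSeq genes and human XenoRefSeq genes placed on the canine genome (canFam4). Of the 72 members, 7 were measured by a canine feature (ATP5F1A, COX5A, COX5B, COX8A, NDUFB6, NDUFS8 and SDHB) and 65 by a human one. The feature of 55 members lay only on the RefSeq gene of the same symbol. For 4 members it lay there and elsewhere, for 3 it lay only elsewhere, and 10 symbols have no RefSeq entry. The features of 37 members overlap another RefSeq gene, and reads there were counted for both without regard to strand. Of all members, 70 passed the minimum of 100 counts over the 34 dogs. NDUFC1, whose feature lies away from its gene, had 0 counts, and COX7B2 had 8.

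The members together took 0.182% to 0.806% of a dog's counts. The share had a median of 0.243% in 10y-noCHF (range 0.182% to 0.506%) and of 0.256% in 10y-MMVD-CHF (range 0.184% to 0.806%), and the ranges overlapped, with CAV1047 and CAV373 above every 10y-noCHF dog. The highest share was that of CAV1047, a 10y-MMVD-CHF female, which also had the highest share of cardiomyocyte markers (4.59%). CAV373, a 10y-MMVD-CHF male, followed with 0.541%, and then the 10y-noCHF females CAV748, CAV1731 and CAV1114 with 0.506%, 0.504% and 0.492%. CAV1047 had the highest CPM of all 34 dogs for 66 of the 70 members tested.

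**Figure D1:**
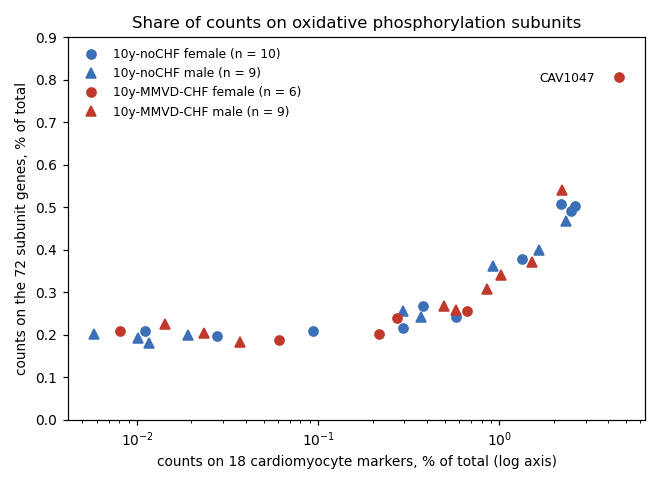
The share of each dog's counts on the 72 subunit genes (vertical axis, %) against the share on 18 cardiomyocyte markers (horizontal log axis, %), with colour for the group and shape for the sex. The shares on the subunits are nearly level over the lower part of the marker range and rise in its upper part, from a lowest value of 0.182% up to 0.806% in CAV1047.

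For the 7 canine features, whose length is that of the exons, levels could be compared between genes per kilobase. ATP5F1A, the alpha subunit of ATP synthase (chr7:45108043-45116902, plus strand), had the highest median at 106 CPM per kilobase (range 73.9 to 527, n = 34). COX5B, a structural subunit of complex IV (chr10:46037103-46043336, minus strand), followed with 78.7 (47.1 to 412), and then NDUFS8, an iron-sulfur subunit of complex I, with 49.1 (30.6 to 181). SDHB, the iron-sulfur subunit of complex II, and NDUFB6, an accessory subunit of complex I, had nearly equal medians of 34.9 and 34.5. COX8A had 29.1 and COX5A 27.1. The ranges of neighbours in this order overlapped widely. The human features span introns, so their levels were not compared between genes.

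The comparison of 10y-MMVD-CHF with 10y-noCHF gave no called member. With edgeR's quasi-likelihood test, 0 of 70 members had a false discovery rate (FDR) below 0.1, where 0.118% of the 19568 features tested were called. No member had an unadjusted p below 0.05, against 6.31% of all features, and DESeq2 and limma voom also called 0. The fitted log2 fold change was positive for 63 of 70 members, with a median of 0.09, beside a median of 0.0076 over all features. Only 33 of 70 members had a higher median CPM in 10y-MMVD-CHF.

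That direction rested on CAV1047. Without this dog, 3 of 69 members were positive and 66 negative, and the median was -0.12, again with 0 called. Without both CAV614 and CAV1047, 4 of 69 were positive (median -0.12). With limma voom and sample weights, which keeps all dogs, 32 of 70 were positive (median -0.0081). With the cardiomyocyte marker mean as a covariate, 35 of 70 were positive, the median was 0.0020 and 0 were called (0.153% of all features). That even split was not stable. In the fit with this covariate, 4 of 69 were positive without CAV1047 (median -0.10) and 5 of 70 with limma voom (median -0.11). When the mean of 7 adipocyte markers was added as a further covariate, 68 of 70 were positive (median 0.11). Each of these fits called 0 members.

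**Figure D2:**
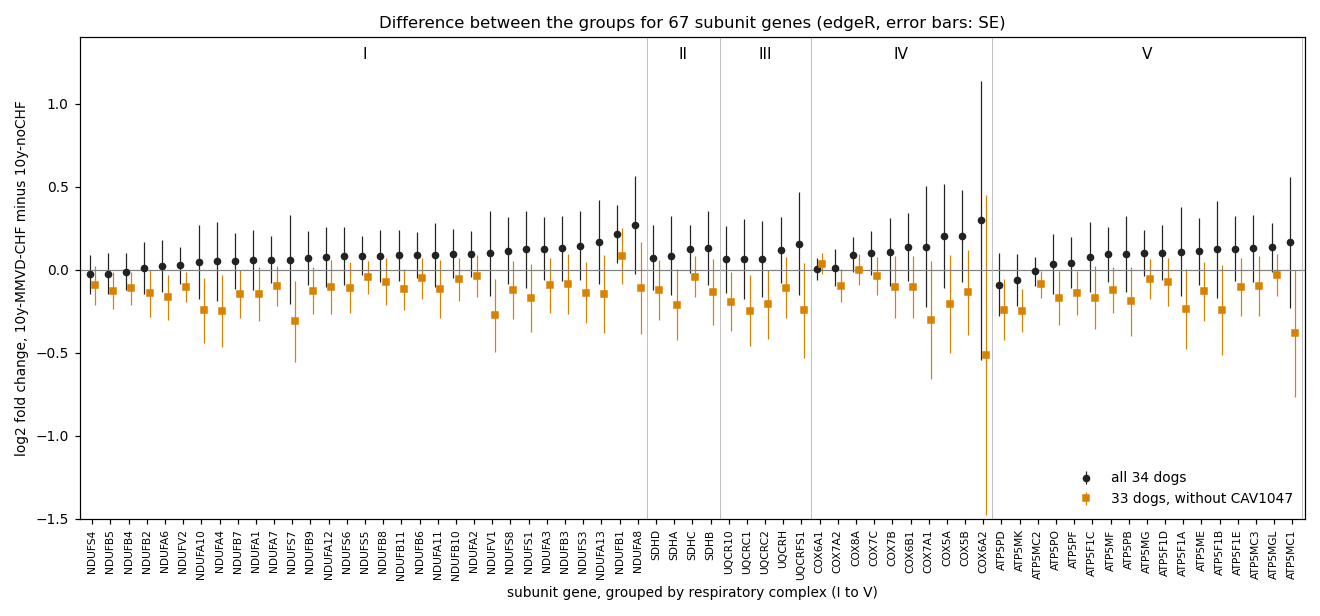
The log2 fold change (vertical axis, 10y-MMVD-CHF minus 10y-noCHF, error bars SE) for 67 members grouped by complex, with all 34 dogs (circles) and without CAV1047 (squares). COX6C and ATP5MJ, with 105 and 100 counts in all, and 1 further member are left out. Most circles lie just above 0 and most squares below it.

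In complex I, NDUFS1, the largest iron-sulfur subunit, had 56.0 to 209 CPM in 10y-noCHF (median 78.7) and 58.7 to 369 in 10y-MMVD-CHF (median 91.0). Its log2 fold change was 0.12 ± 0.23 (SE, FDR 0.965), and the highest value was again that of CAV1047. NDUFB1, a small accessory subunit, had the smallest p of the complex. It ranged from 1.21 to 3.07 CPM in 10y-noCHF (median 1.94) and from 1.24 to 4.67 in 10y-MMVD-CHF (median 2.11). The difference was 0.21 ± 0.17 (SE, p = 0.234, FDR 0.903), and 10 of 15 10y-MMVD-CHF dogs were above the 10y-noCHF median. It stayed positive without CAV1047 (0.081). The 32 complex I members tested had a median of 0.084, with 29 positive.

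In complex II all 4 members were positive, between 0.073 and 0.13. SDHA, the flavoprotein that oxidises succinate, had 71.1 to 233 CPM in 10y-noCHF (median 104.0) and 60.3 to 426 in 10y-MMVD-CHF (median 104.2). The medians were nearly equal and the log2 fold change was 0.084 ± 0.24 (SE, FDR 0.979). SDHC, a membrane anchor, had the smallest p, with 41.5 to 83.7 CPM (median 47.6) against 39.8 to 142 (median 51.1). Its difference was 0.13 ± 0.14 (SE, p = 0.388, FDR 0.944).

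In complex III the 5 members were between 0.062 and 0.16. UQCRFS1, the Rieske iron-sulfur protein, had 14.4 to 91.9 CPM in 10y-noCHF (median 25.8) and 15.9 to 152 in 10y-MMVD-CHF (median 25.7), with a log2 fold change of 0.16 ± 0.31 (SE, FDR 0.968). UQCRH, the hinge protein, had the smallest p of the complex (0.12 ± 0.20, SE, p = 0.558, FDR 0.962).

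In complex IV, COX5A had 12.5 to 71.8 CPM in 10y-noCHF (median 19.3) and 14.9 to 132 in 10y-MMVD-CHF (median 21.6). Its log2 fold change was 0.20 ± 0.31 (SE, FDR 0.959). COX8A had the smallest p (0.090 ± 0.10, SE, p = 0.394, FDR 0.945), with 11.9 to 22.1 CPM (median 14.9) against 11.6 to 28.9 (median 16.2). In complex V, ATP5F1B, the catalytic beta subunit (chr10:1223514-1230033, minus strand), had 147 to 673 CPM in 10y-noCHF (median 241) and 145 to 1260 in 10y-MMVD-CHF (median 243). The difference was 0.12 ± 0.29 (SE, FDR 0.972). ATP5F1A gave 0.11 ± 0.27 (SE, FDR 0.972). The SEs of these catalytic subunits were larger than the differences. ATP5MJ had the smallest p of complex V (-0.89 ± 0.76, SE, p = 0.246, FDR 0.908), but it rests on 100 counts in all and its feature lies away from the RefSeq gene.

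Between the sexes, edgeR called 0 of 70 members (0.143% of all features, all of them lower in males), 0 had an unadjusted p below 0.05 (2.98% of all features), and DESeq2 and limma voom also called 0. The male minus female log2 difference was negative for 65 of 70 members, with a median of -0.15. The fitted median over 18 cardiomyocyte markers was -0.57 with 0 called. The marker mean of the dogs had a median of 6.58 log2 CPM in females and 6.96 in males. Its average had the other order, with 6.37 ± 2.85 (SD, n = 16) in females and 5.66 ± 3.33 (SD, n = 18) in males. The median over 7 adipocyte markers was -0.88 with 0 called. Over 6 red blood cell markers it was 2.66, with HBA1 and HBA2 identical in all values and so not separate measurements. Of these markers 5 had an unadjusted p below 0.05 and 0 were called. The part of these cells in the sex comparison was not tested. Without CAV1047, 56 of 69 members were positive (median 0.058), and with limma voom 51 of 70 were positive. The smallest p in complex I was that of NDUFA3 (-0.34 ± 0.19, SE, p = 0.0777). In the other complexes it was SDHA (-0.24, p = 0.323), UQCRC1 (-0.23, p = 0.357), COX6A1 (0.096, p = 0.158) and ATP5F1E (-0.27, p = 0.184).

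The interaction of CHF and sex was called by edgeR for 0 of 70 members and for 0% of all features. It had an unadjusted p below 0.05 for 0 members, against 6.02% of all features, and DESeq2 and limma voom also called 0 members. The smallest p in each complex was that of NDUFA2 (0.219), SDHB (0.664), UQCRH (0.722), COX6C (0.195) and ATP5MJ (0.227).

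The members followed the cardiomyocyte markers across dogs. Each feature was fitted on the mean log2 CPM of the 18 markers with CHF status and sex as covariates, and the slope is the log2 change per doubling of the markers. Of 70 members, 67 rose and 1 fell at an FDR below 0.1, whereas 18.9% of all features rose and 18.3% fell. The median slope was 0.11 for the members and -0.0060 for all features. With upper-quartile normalization, the calls over all features were 3174 rising and 5185 falling, against 3706 and 3589 with the TMM normalization used here, and 67 members still rose. The 2 members without a call were NDUFB1 (0.054 ± 0.026, SE, FDR 0.109) and ATP5MJ (0.11 ± 0.13, SE, FDR 0.542).

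**Figure D3:**
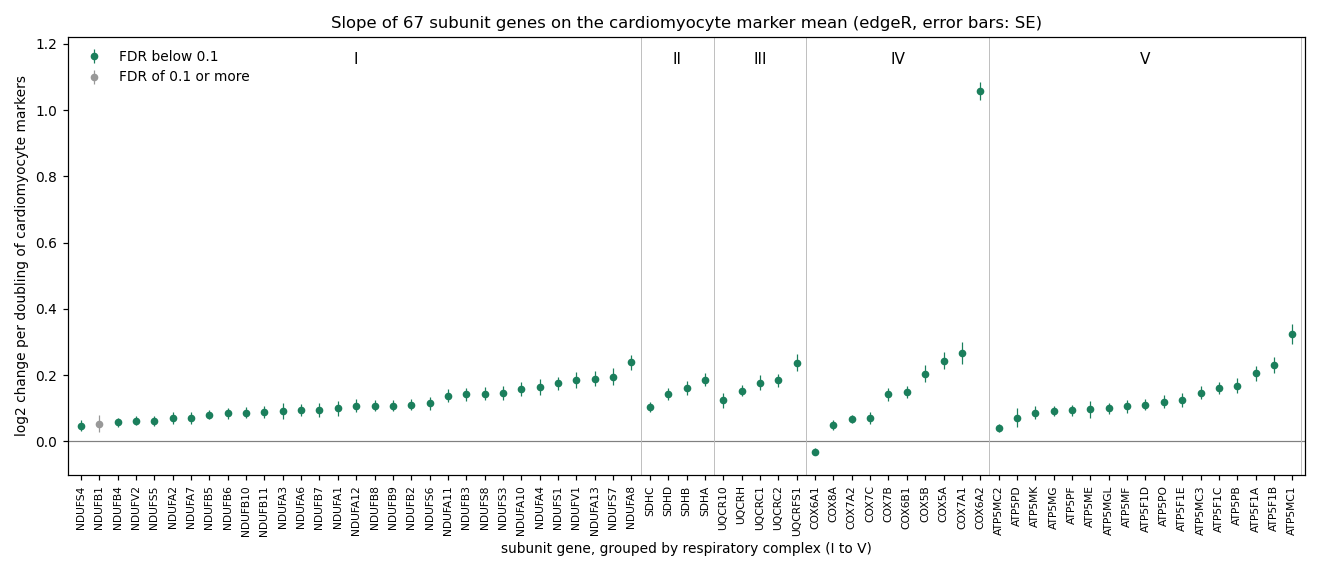
The slope (vertical axis, log2 change per doubling of the cardiomyocyte markers, error bars SE) for 67 members grouped by complex, without COX6C, ATP5MJ and 1 further member. COX6A2 stands at 1.06, COX6A1 is just below 0, and the other members lie between 0.041 and 0.32.

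In 10y-noCHF dogs alone 65 of 68 members rose, where 13.1% of all features tested in those dogs did. In 10y-MMVD-CHF dogs alone 60 of 68 rose, beside 15.4% of all features. Among the 54 tested members whose feature lies only on its own gene, 53 rose and 0 fell. Without CAV1047, 66 of 69 rose (median slope 0.10), beside 17% of all features. Other cell type markers also moved with the marker mean. Of 7 adipocyte markers 6 rose (median slope 0.32), of 8 valve interstitial cell markers 7 fell (-0.070), of 8 macrophage markers 6 fell (-0.063), and of 8 endothelium markers 1 rose. Of 7 smooth muscle markers 2 rose and 4 fell, and of 6 fast skeletal muscle markers 1 rose and 1 fell. Of 6 red blood cell markers, with HBA1 and HBA2 identical, 1 fell. Adipocyte marker means ranged from -1.19 to 3.96 log2 CPM in 10y-noCHF and from -0.52 to 3.96 in 10y-MMVD-CHF, with ADIPOQ and CIDEC at 0 CPM in their lowest dogs. With the adipocyte mean as a further covariate, 47 of 70 members rose, 1 fell and the median slope was 0.072, where 11.3% of all features rose and 9.59% fell. The part of the interstitial cells and macrophages in these slopes was not tested.

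By complex, the median slopes were 0.10 in complex I (31 of 32 rose), 0.15 in complex II (4 of 4), 0.18 in complex III (5 of 5), 0.15 in complex IV (10 of 11) and 0.11 in complex V (17 of 18). Over all features 18.9% rose. The difference between complexes was not tested.

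In complex I the core subunits NDUFV1, which binds NADH, and NDUFS1 had slopes of 0.19 ± 0.024 (SE, FDR 1.6e-07) and 0.18 ± 0.021 (SE, FDR 2.0e-08). The largest slope of the complex was that of NDUFA8, an accessory subunit (0.24 ± 0.022, SE, FDR 1.0e-10), whose feature also overlaps MORN5. NDUFA8 had 26.8 to 123 CPM in 10y-noCHF (median 46.0) and up to 262 in 10y-MMVD-CHF (median 53.2). The smallest slope was that of NDUFS4 (0.048 ± 0.017, SE, FDR 0.031). NDUFS4 was not called with the adipocyte covariate (0.023, FDR 0.535) or in either group alone.

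In complex II, SDHA had the largest slope (0.19 ± 0.020, SE, FDR 1.7e-09), SDHB and SDHD, the other membrane anchor, had 0.16 and 0.14, and SDHC the smallest (0.10 ± 0.015, SE, FDR 7.9e-07). In complex III the slopes ran from 0.12 ± 0.023 (SE, FDR 6.3e-05) for UQCR10, a small accessory subunit, to 0.24 ± 0.025 (SE, FDR 2.8e-09) for UQCRFS1. UQCRC1, a core protein, had 0.18. The ATP synthase subunits of the catalytic head, ATP5F1A and ATP5F1B, had 0.21 ± 0.023 (SE, FDR 7.2e-09) and 0.23 ± 0.024 (SE, FDR 1.1e-09). The highest ATP5F1B value was 8.69 times the lowest, and that of ATP5F1A 7.13 times.

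Complex IV held the most unequal members. COX6A2, the heart and skeletal muscle form of subunit 6A (chr6:16966464-16967047, plus strand, on its own RefSeq gene), had a slope of 1.06 ± 0.028 (SE, FDR 2.0e-26), close to the median of 1.05 of the cardiomyocyte markers themselves. The level of the markers' own slopes is set by the fit, since their mean is the covariate. The values of COX6A2 ran from 0 to 148 CPM in 10y-noCHF (median 19.1) and from 0.212 to 289 in 10y-MMVD-CHF (median 22.9). CAV749, the dog with the lowest marker mean, had 0 counts. The value of CAV1047 was at least 7472-fold higher than the limit that 3 counts set in CAV749 (0.0387 CPM). The difference between the groups was 0.30 ± 0.84 (SE, FDR 0.979), and it was -0.52 without CAV1047.

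COX6A1, the form of most other tissues (chr26:16692723-16694798, plus strand), was the most even member, with its highest value 1.73 times its lowest. It had 48.4 to 74.6 CPM in 10y-noCHF (median 65.1) and 47.9 to 82.7 in 10y-MMVD-CHF (median 63.9). Its slope was -0.031 ± 0.0097 (SE, FDR 0.015), and CAV1047, the highest dog for most members, was its lowest. COX6A1 has no RefSeq entry under this symbol, and its feature overlaps the RefSeq gene LOC477508. In 10y-noCHF dogs alone the slope was -0.029 and did not pass (FDR 0.16). The difference between the groups was 0.0058 ± 0.067 (SE, FDR 0.994).

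COX7A1, the muscle form of subunit 7A (chr1:117392124-117392922, plus strand), had a slope of 0.27 ± 0.033 (SE, FDR 6.5e-08), and COX7A2, its counterpart in other tissues, had 0.068 ± 0.013 (SE, FDR 1.4e-04). COX7A1 had 5.23 to 41.6 CPM in 10y-noCHF (median 9.95) and 5.69 to 77.9 in 10y-MMVD-CHF (median 10.7). COX7A2 had 19.6 to 38.4 (median 25.4) and 18.5 to 47.8 (median 24.5). Neither differed between the groups beyond its spread, with log2 fold changes of 0.14 ± 0.36 (SE, FDR 0.975) and 0.012 ± 0.11 (SE, FDR 0.993). COX7A2 has no RefSeq entry under this symbol and 3 intervals. The structural subunits COX5A and COX5B had slopes of 0.24 and 0.20, and COX8A had 0.050 ± 0.014 (SE, FDR 0.0082). With the adipocyte covariate COX8A was not called (0.033, FDR 0.262).

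**Figure D4:**
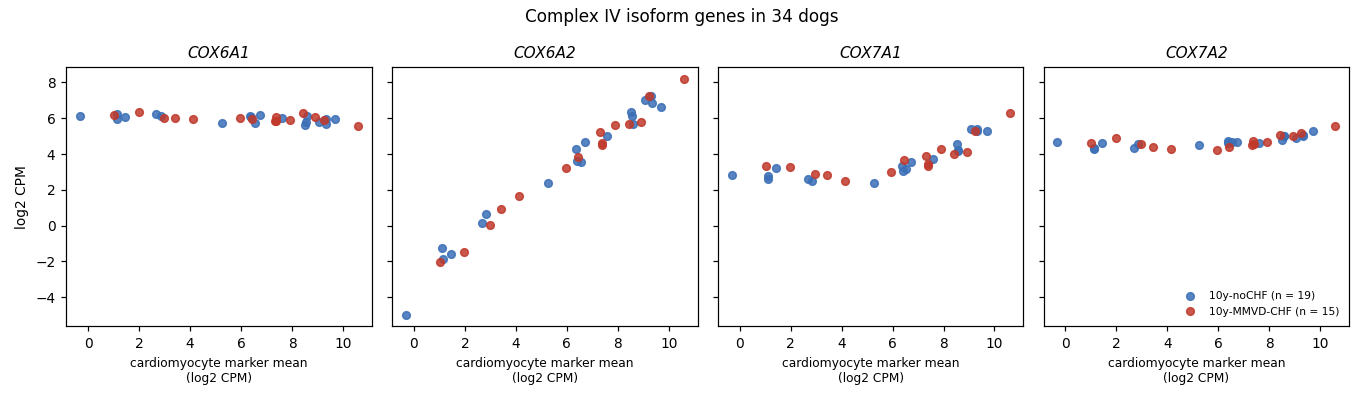
The log2 CPM (vertical axis) of COX6A1, COX6A2, COX7A1 and COX7A2 in each of 34 dogs against the cardiomyocyte marker mean (horizontal axis, log2 CPM), with colour for the group. COX6A2 climbs along the whole range, COX7A1 rises mainly at its upper end, and COX6A1 and COX7A2 stay nearly level.

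The log2 ratio of COX6A2 to COX6A1 in a dog was -2.93 ± 4.07 (SD, n = 19) in 10y-noCHF and -2.48 ± 3.24 (SD, n = 15) in 10y-MMVD-CHF. The difference was 0.45 (permutation test, two-sided, with labels permuted inside each sex, p = 0.732, adjusted p = 0.817). The ratio of COX7A1 to COX7A2 was -1.04 ± 0.84 (SD, n = 19) and -0.97 ± 0.71 (SD, n = 15), a difference of 0.072 (p = 0.792, adjusted p = 0.817). In both ratios the ranges of the groups overlapped, with 8 and 10 of 15 10y-MMVD-CHF dogs above the 10y-noCHF median.

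Both ratios followed the cardiomyocyte marker mean over the 34 dogs. For COX6A2 to COX6A1 the Pearson correlation was 0.979 and Spearman's rho 0.979, and for COX7A1 to COX7A2 they were 0.781 and 0.859. The permutation p was 1e-05 in each case, raw and adjusted, which is the smallest that 100000 resamples can give. Without the 2 dogs farthest from the median marker mean the Pearson correlations were 0.990 and 0.798. Those dogs were CAV749 and CAV1196, which had the lowest marker means, so CAV1047 was kept in this check. They were 0.974 and 0.783 within 10y-noCHF and 0.990 and 0.778 within 10y-MMVD-CHF. In CAV1047 the muscle form was the higher of the pair in both cases, with log2 ratios of 2.59 and 0.70.

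The 3 genes ATP5MC1, ATP5MC2 and ATP5MC3 encode the same mature subunit c of the ATP synthase ring. Their slopes differed in size, with 0.32 ± 0.029 (SE, FDR 4.1e-11) for ATP5MC1, 0.15 ± 0.019 (SE, FDR 1.2e-07) for ATP5MC3 and 0.041 ± 0.012 (SE, FDR 0.011) for ATP5MC2. The ATP5MC2 call was lost with the adipocyte covariate (0.0075, FDR 0.776) and in 10y-MMVD-CHF dogs alone (0.039, FDR 0.288). ATP5MC1 (chr9:25073566-25076252, plus strand) had 9.50 to 79.2 CPM in 10y-noCHF (median 22.4) and 10.1 to 174 in 10y-MMVD-CHF (median 24.1), and its highest value was 18.3 times its lowest. ATP5MC3 had 12.7 to 34.5 (median 17.6) and 11.5 to 61.5 (median 17.8). ATP5MC2 had 21.03 to 34.9 (median 28.02) and 20.96 to 45.8 (median 25.6), and its feature has 16 intervals on 9 chromosomes, so its counts may not be of that gene alone.

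The ratio of ATP5MC1 to ATP5MC3 was examined after these slopes had been seen. It was 0.36 ± 0.63 (SD, n = 19) on the log2 scale in 10y-noCHF and 0.32 ± 0.57 (SD, n = 15) in 10y-MMVD-CHF (difference -0.049, same permutation test, p = 0.817, adjusted p = 0.817). Its Pearson correlation with the marker mean over the 34 dogs was 0.889 and its rho 0.932. Both are given as a description without their p, since the ratio was picked from these slopes. The adjusted p of the planned ratios also counts this ratio.

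**Figure D5:**
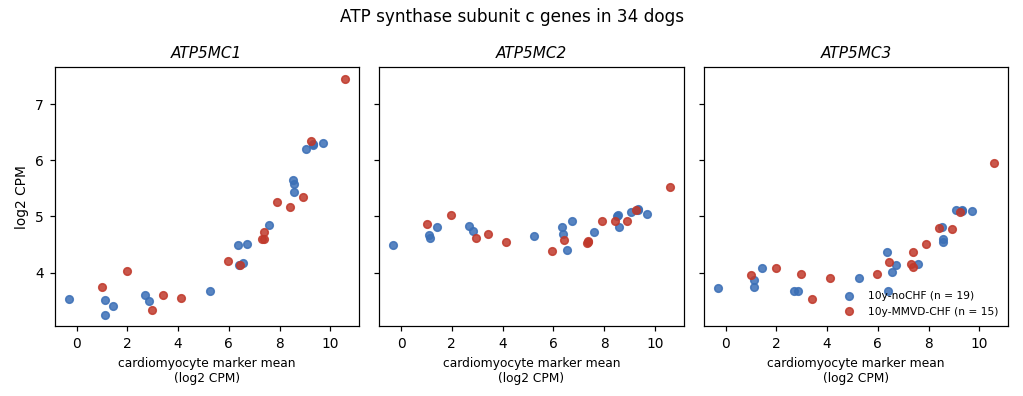
The log2 CPM (vertical axis) of the 3 subunit c genes in each of 34 dogs against the cardiomyocyte marker mean (horizontal axis, log2 CPM), with colour for the group. ATP5MC1 spans the widest range (9.50 to 174 CPM), ATP5MC3 a narrower one and ATP5MC2 the narrowest.

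Several members could not be read as their own gene, or not as that gene alone. COX6C had 105 counts in all from a feature that overlaps SSH2. Its slope was 0.33 ± 0.15 (SE, FDR 0.087). ATP5PD had 6978 counts from 19 intervals on 17 chromosomes (slope 0.072 ± 0.028, SE, FDR 0.047), and ATP5MF had 69064 from 7 intervals on 6 chromosomes (0.11). ATP5MF has no RefSeq entry under this symbol, and its intervals overlap the RefSeq gene ATP5J2 and several others. The feature of ATP5ME lies away from the RefSeq gene (0.097), and that of ATP5MGL lies within ATP5MG and shares its reads (0.10). For the 7 members with 2 features, the human feature gave slopes near those of the canine one, for example 0.20 against 0.21 for ATP5F1A and 0.14 against 0.16 for SDHB. The human feature of COX5A lies away from the gene and held 1657 counts against 63362, with a slope of 0.23 against 0.24.

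Genes of electron transport outside the name patterns were described in the same fits. None of 8 was called between the groups (0.118% of all features). With the cardiomyocyte markers 6 rose (median slope 0.17), where 18.9% of all features did. CYCS, cytochrome c, had a slope of 0.27, CYC1, a haem subunit of complex III, 0.23, and COX4I1, the common form of subunit 4, 0.17. COX4I2, the form known from lung, had 0.28 at a median of 0.763 CPM. NDUFA4L2, a hypoxia-responsive relative of NDUFA4, had a slope of -0.082 (FDR 0.194) and a log2 fold change of 0.44 between the groups (FDR 0.869). The 26 mitochondrially encoded symbols listed had 0 features tested.

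Of 40 assembly factors, which build the complexes without being part of them, 21 rose and 0 fell, with a median slope of 0.030. Among 14 regulators of mitochondrial biogenesis, 6 rose and 2 fell (median 0.0069). Of all features 18.9% rose and 18.3% fell. PPARGC1A, a coactivator of mitochondrial genes, had a slope of 0.67 ± 0.042 (SE, FDR 2.5e-15) and ranged from 0.485 to 70.6 CPM. Its partner receptors ESRRG and ESRRA had 0.52 and 0.17. NRF1, which binds promoters of subunit genes, fell (-0.020, FDR 0.066), and TFAM, the packaging factor of mitochondrial DNA, had 0.015 (FDR 0.169). Between the groups PPARGC1A had a log2 fold change of -0.018 (FDR 0.999). By edgeR, 0 genes of either list were called (0.118% of all features). An unadjusted edgeR p below 0.05 was reached by 1 assembly factor and 2 regulators, beside 6.31% of all features. The regulators were TFAM (0.18 ± 0.053, SE, p = 0.00173, FDR 0.387) and PPRC1 (-0.17 ± 0.071, SE, p = 0.0245, FDR 0.722).

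All 13 genes of the tricarboxylic acid cycle rose with the markers (median slope 0.15). Of 14 genes of fatty acid oxidation 13 rose and 1 fell (0.14), and of 18 genes of glycolysis 13 rose and 2 fell (0.10). Among all features tested, 18.9% rose and 18.3% fell. None of the genes of these lists was called between the groups by edgeR (0.118% of all features). An unadjusted edgeR p below 0.05 was reached by 0 of these genes, beside 6.31% of all features.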

How the data were processed

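RNA from 34 mitral valves was sequenced as paired 150-base reads. Per the study's methods and the header of the table, STAR alignments to canFam4 were summarised by the authors with featureCounts 2.0.3 over canine RefSeq and human XenoRefSeq features, and the values deposited are raw counts. By the recorded command, a read counts for each feature that it touches, strand is ignored, and the mates of a pair count separately. Of 35 columns with counts, 1 belongs to no sample and was not used.

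Features with at least 100 counts in all were tested (19568 of 23768) with edgeR 4.0.16 in R 4.3.3 (quasi-likelihood, TMM, sex and CHF as terms, Benjamini-Hochberg over all features, FDR threshold 0.1). CPM values are TMM-normalized, with a prior count of 2 on the log2 scale. Ratios used counts + 0.5 and permutation of CHF labels within each sex (100000 resamples). Slopes used the mean log2 CPM of 18 cardiomyocyte markers. Alternatives were DESeq2 1.42.0, limma 3.58.1 voom with sample weights, RLE and upper-quartile normalization, filterByExpr, no filter, 1 feature per symbol, robust dispersion, no sex term, an FDR of 0.05, a short marker list, a linear marker scale, a pseudocount of 5 and leaving out each dog. Alternatives chosen after seeing the data were an adipocyte covariate, each group alone, features on their own gene only, human in place of canine features, leaving out CAV614 and CAV1047, and the ATP5MC1 ratio. The tests were checked on simulated data. With 200 features changed by 1.5 log2 between the groups, edgeR recovered 96.5%, and 10.6% of its calls were false. With 200 slopes of 0.15 in size it recovered 89%, and 8.72% of its calls were false. Group differences as small as those fitted for most members were not simulated.

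Total counts of 46185256 to 82361245 per dog limit precision for members with few counts. The members and lists were chosen with earlier results of these data known. Members named are the muscle and non-muscle isoforms, 12 core subunits, those with the smallest p and with the largest and smallest slope in each complex, those highest and lowest per length, and those whose loci or second features affect a value. The values of 1 member that this rule names are not reported here. Loci were matched by symbol to RefSeq genes of UU_Cfam_GSD_1.0, where 62 members have an entry. Levels per length were planned for all members and given for canine features only, since human features span introns. Labels name no batch.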

Additional observations from a re-analysis of the deposited data

Results flagged for a closer look

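Within each group and sex, the highest or lowest dog was compared with its nearest neighbour for 40 measures, which gave 160 tests and 27 flags. Chance flags about 1 in 20 such tests. The value is the gap to the nearest dog divided by the range of the group, on the log2 CPM scale for genes. All 27 flags were CAV1047 as the highest of the 6 10y-MMVD-CHF females. The member that is not reported here was left out of these tests after its values had been seen. The measures share that dog and are not independent.

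The share of counts on the members had the value 0.887 in CAV1047. In complex I the values of CAV1047 were 0.795 for NDUFS1, 0.755 for NDUFV1, 0.687 for NDUFA3, 0.707 for NDUFA2, 0.736 for NDUFA8, 0.689 for NDUFS8 and 0.756 for NDUFB6. In complex II they were 0.806 for SDHA, 0.822 for SDHB, 0.741 for SDHC and 0.749 for SDHD, and in complex III 0.76 for UQCRC1, 0.812 for UQCRFS1, 0.744 for UQCRH and 0.685 for UQCR10. In complex IV they were 0.635 for COX7A1, 0.706 for COX7A2, 0.716 for COX5A and 0.763 for COX5B. In complex V they were 0.759 for ATP5F1A, 0.727 for ATP5F1B, 0.767 for ATP5F1E, 0.732 for ATP5MC1, 0.685 for ATP5ME, 0.917 for ATP5MF and 0.70 for ATP5MGL. CAV1047 had the highest cardiomyocyte marker mean of all dogs (10.6 log2 CPM). The marker mean and COX6A2 were among the measures tested and were not flagged in any group.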

How the results depend on the processing

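No paired analysis was possible because the labels give no replicate numbers that groups share. The counts of called members for CHF, sex, their interaction and CHF with the marker covariate were 0 under every alternative run. The number of members rising with the markers ranged from 65 to 68 when 1 dog was left out, and was 47 with the adipocyte covariate. The number falling was 0 instead of 1 in 10y-noCHF dogs alone and 0 with features on their own gene only, where COX6A1 was not among the features. Over all features, calls for CHF were 5 higher and 18 lower with edgeR, 15 and 49 with DESeq2, 3 and 12 with 1 feature per symbol, and 4 and 9 without the sex term. The median log2 fold change of the members for CHF ran from -0.12 without CAV1047 to 0.16 without CAV865.

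The direction of uncalled CHF differences changed in the following cases, for causes that were not tested. Without CAV614 and CAV1047 the log2 fold change was -0.20 for ATP5F1A, -0.20 for ATP5F1B, -0.17 for COX5A, -0.43 for COX6A2, -0.27 for COX7A1, -0.11 for COX7A2, -0.13 for NDUFS1, -0.17 for SDHA, -0.027 for SDHC, -0.21 for UQCRFS1 and -0.10 for UQCRH. With limma voom COX6A1 had -0.00780 and COX7A2 -0.046, and with upper-quartile normalization -0.00731 and -0.00785. The slope of ATP5MJ was -0.12 with the adipocyte covariate.

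When 1 dog was left out, the log2 fold changes ranged from -0.24 to 0.22 for ATP5F1A, -0.24 to 0.23 for ATP5F1B, -0.21 to 0.37 for COX5A, -0.019 to 0.035 for COX6A1, -0.52 to 0.56 for COX6A2, -0.30 to 0.33 for COX7A1, -0.096 to 0.055 for COX7A2, -0.00014 to 0.13 for COX8A, -0.17 to 0.24 for NDUFS1, -0.21 to 0.19 for SDHA, -0.042 to 0.18 for SDHC, -0.25 to 0.33 for UQCRFS1 and -0.11 to 0.19 for UQCRH. The lowest value was that without CAV1047 except for COX6A1, whose highest was. The group differences of the log2 ratios ranged from -0.13 to 0.87 for COX6A2 to COX6A1, -0.048 to 0.16 for COX7A1 to COX7A2, and -0.13 to 0.019 for ATP5MC1 to ATP5MC3. Slopes of 18 named-gene results under other alternatives lost their call, 9 of them with the adipocyte covariate. Members with about 100 counts in all (COX6C, ATP5MJ) were too shallow to show small differences.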

Other observations

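Within glycolysis, several muscle forms and their counterparts of other tissues had unequal slopes on the cardiomyocyte markers, though not every pair was ordered alike. These genes were chosen after their values had been seen. PGAM2, the muscle phosphoglycerate mutase, had a slope of 0.88 ± 0.029 (SE, edgeR FDR 1.4e-23) and PGAM1 0.054 ± 0.012 (SE, FDR 0.0010). ENO3, the muscle enolase, had 0.50 ± 0.035 (SE, FDR 4.1e-14), whereas ENO1 had -0.0011 (FDR 0.965). PFKM, the muscle phosphofructokinase, had 0.35, PFKL 0.019 (FDR 0.352), and PFKP fell (-0.058, FDR 0.0048). In the hexokinase pair the order was the reverse. HK2, the main hexokinase of muscle, had -0.0062 (FDR 0.921) and the widely expressed HK1 0.13 ± 0.016 (SE, FDR 6.9e-08). In the lactate dehydrogenase pair, LDHB, the heart subunit, had 0.27 ± 0.026 (SE, FDR 3.5e-10) and LDHA, the skeletal muscle subunit, 0.072 ± 0.014 (SE, FDR 1.0e-04).

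In fatty acid oxidation, CPT1B, the muscle form of the enzyme that admits long-chain fatty acids to mitochondria, had a slope of 0.34 ± 0.030 (SE, FDR 2.6e-11). CPT1A, the form of liver and many other tissues, was the gene of that list that fell (-0.044, FDR 0.038). The differences between the slopes of these pairs were not tested. PGAM2 ranged from 0.181 to 134 CPM and CPT1A from 46.8 to 154 CPM over the 34 dogs.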
